A study of Mus musculus with 18 samples.

Results

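Genes that characterise the projection neurons of the striatum were followed in frontal cortex of newborn mice by RNA sequencing. The set was a list of 9 genes given by name, Drd1, Drd2, Ppp1r1b, Pde10a, Adora2a, Penk, Tac1, Foxp1 and Meis2, out of 54532 genes in the deposited count table, and each of the 9 matched a single gene identifier. Double mutants of Rxrg and Rarb (dKO), which encode the nuclear receptors retinoid X receptor gamma and, for Rarb, retinoic acid receptor beta, were compared with controls at postnatal day 0. In each genotype, tissue named orbital, medial and dorsal in the labels was taken, which gave 6 groups of 3 libraries and 18 libraries in all. The labels do not describe the mutant alleles, the strain, the sex or the genotype of the controls beyond the word control, and they do not say how many animals were used. The dissection notes name medial frontal, motor and orbitofrontal tissue without stating which of these is the dorsal tissue.

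Projection neurons of the striatum are inhibitory cells that receive cortical and dopaminergic input. Those of the direct pathway carry the D1 dopamine receptor and substance P, and those of the indirect pathway carry the D2 dopamine receptor, the adenosine receptor encoded by Adora2a and enkephalin. Retinoic acid receptor beta and retinoid X receptor gamma are abundant in the striatum, and mouse studies place them upstream of striatal dopamine receptor expression. The cortex is not striatum, and several of the 9 genes are also transcribed in cortical neurons: Foxp1 in projection neurons of several layers, Ppp1r1b and Drd1 in deep layers, Meis2 in progenitors and in subsets of neurons, and Penk and Tac1 in some interneurons. In bulk tissue, fewer cells of a type and less RNA per cell cannot be told apart.

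The libraries held 28957325 to 93093398 counted fragments, and the deepest were the control libraries of replicate 1. The 3 libraries that share a title prefix and an index are called a row below, so that each row holds the 3 regions of 1 replicate of a genotype. Between replicates, the chi-square of the counts was 41.8 to 190 per degree of freedom, far above the value of about 1 that counting noise gives, so no 2 replicates of a group were the same library. The tissue check matched cortex: Neurod6, a transcription factor of cortical projection neurons, had 848 to 1830 CPM (counts per 1e6 counted fragments) over the 18 libraries, whereas Isl1, a transcription factor of direct pathway neurons, had at most 6.48 CPM and Drd3, a dopamine receptor of the ventral striatum, at most 0.0621 CPM. Rarb had 1.19 to 4.85 CPM in the dKO libraries, against 3.5 to 13.9 CPM in the control libraries. Rxrg had 0.377 to 2.9 CPM in the dKO libraries. In the controls Rxrg stood apart in the row of replicate 2, where orbital tissue held 21.4 CPM, medial tissue 6.11 CPM and dorsal tissue 30.5 CPM, and it had 1.64 to 4.01 CPM in the other control libraries. Xist, which is transcribed from inactive X chromosomes, had 9.45 to 31.4 CPM in the dKO libraries of replicates 1 and 3 and at most 0.155 CPM in every other library, so the dKO rows differ in this marker of female tissue and no control row carries it.

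RefSeq promoter sequences (build GRCm38.p6, 250 bases before to 50 bases after an annotated start site) were held for 6 of the 9 genes, with 10 start sites in all. Because the mutated receptors bind DNA, the sequences were searched on both strands for AGGTCA, the 6-letter half-site of nuclear receptors. Its common variants were searched as well, first GGGTCA, then those with T in the middle, namely AGTTCA on the one hand and, on the other, GGTTCA. Shown are the promoters of Drd2, Pde10a, Foxp1 and Meis2, which passed the threshold between regions in controls as described below, as did Penk, which had no entry. Where a gene had several start sites, the one with a half-site is printed. Each is given 5′ to 3′ on the strand of the gene, with half-sites on either strand in capitals. The Drd2 promoter lies at chr9:49340153-49340452 on the plus strand, the Pde10a promoter at chr17:8849735-8850034 on the plus strand, the Foxp1 promoter at chr6:99028249-99028548 on the minus strand and the Meis2 promoter at chr2:116064570-116064869 on the minus strand.
Drd2: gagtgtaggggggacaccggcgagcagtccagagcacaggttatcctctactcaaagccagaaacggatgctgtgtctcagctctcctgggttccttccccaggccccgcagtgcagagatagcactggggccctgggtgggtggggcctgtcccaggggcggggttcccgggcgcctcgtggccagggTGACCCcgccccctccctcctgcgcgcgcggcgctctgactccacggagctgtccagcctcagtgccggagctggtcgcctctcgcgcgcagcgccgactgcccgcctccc
Pde10a: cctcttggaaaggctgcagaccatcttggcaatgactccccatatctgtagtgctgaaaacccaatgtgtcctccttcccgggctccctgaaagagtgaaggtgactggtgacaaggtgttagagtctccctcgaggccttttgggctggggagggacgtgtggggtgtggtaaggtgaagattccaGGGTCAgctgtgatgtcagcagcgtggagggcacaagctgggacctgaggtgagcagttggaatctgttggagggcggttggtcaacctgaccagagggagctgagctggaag
Foxp1: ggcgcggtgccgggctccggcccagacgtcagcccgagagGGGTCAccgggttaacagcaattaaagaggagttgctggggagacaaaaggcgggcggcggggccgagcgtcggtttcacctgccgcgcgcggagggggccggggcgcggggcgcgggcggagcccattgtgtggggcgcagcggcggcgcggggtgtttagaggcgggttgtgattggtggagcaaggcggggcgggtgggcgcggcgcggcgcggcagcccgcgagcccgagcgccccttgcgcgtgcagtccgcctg
Meis2: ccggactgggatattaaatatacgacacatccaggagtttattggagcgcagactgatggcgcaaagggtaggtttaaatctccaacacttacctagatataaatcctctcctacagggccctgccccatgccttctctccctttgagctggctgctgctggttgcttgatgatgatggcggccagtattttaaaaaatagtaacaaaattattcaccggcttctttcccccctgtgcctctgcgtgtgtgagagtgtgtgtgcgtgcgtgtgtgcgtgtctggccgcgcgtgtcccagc
Of the 10 promoters, 4 held at least 1 half-site, belonging to Drd1, Drd2, Pde10a and Foxp1, while 43.7% of 32851 promoters of the same length held one. In each of the 4 the letters GGGTCA or their reverse complement occurred, which 13.7% of all promoters hold. AGGTCA and AGTTCA occurred in 0 of the 10, beside 16.3% and 14% of all promoters. GGTTCA occurred in 1, that of Drd1, beside 10.4%. The other start sites of Drd1, Pde10a and Foxp1, the Meis2 promoter and the Tac1 promoter held none. A pair of half-sites on the same strand spaced by 1, 2 or 5 bases, the direct repeats that heterodimers of retinoid receptors are known to bind, was found in 0 of the 10, and in 0.222%, 0.268% and 0.0974% of all promoters. These matches describe letters in a short window, and no binding was measured. Penk, Ppp1r1b and Adora2a are named only.

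All 9 genes were detected in each of the 18 libraries. Set on a common scale, as CPM per kb of exon, Ppp1r1b had the highest level with a mean of 23.2 ± 7.72 (SD, n = 18 libraries), followed by Meis2 with 13.6 ± 3.77. Ppp1r1b encodes DARPP-32, the phosphatase inhibitor through which dopamine signals are integrated, and Meis2 encodes a homeodomain transcription factor of the developing forebrain. Drd1 (9.51 ± 2.9), Foxp1 (7.96 ± 2.46), Penk (7.59 ± 2.34) and Pde10a (5.48 ± 1.74) formed a middle group whose neighbours in this order differed by less than the larger of their SDs. Adora2a (1.82 ± 0.695), Tac1 (0.919 ± 0.807) and Drd2 (0.772 ± 0.724) were the lowest, all in CPM per kb. Between the lowest and the highest library, CPM differed 18.9-fold for Drd2 and 10.4-fold for Tac1, and 2.52-fold to 4.8-fold for the other 7 genes. The counts behind these values ran from 12 to 653 fragments for Drd2 and from 41 to 314 for Tac1, and Adora2a had at least 103 fragments in each library. The other genes had at least 285.

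**Figure D1:**
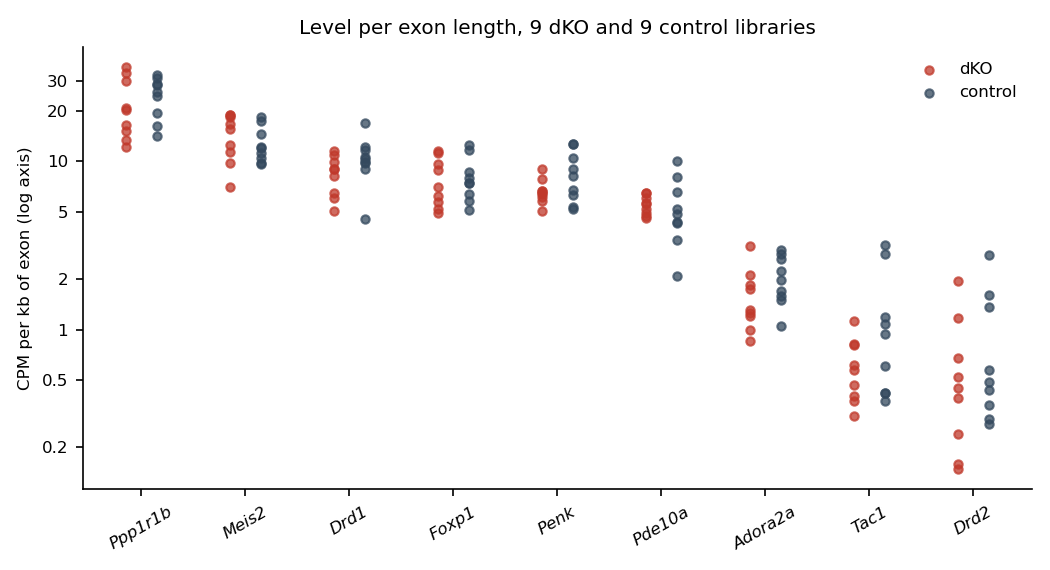
Level of each gene in CPM per kb of exon (log axis), in the order of the mean over 18 libraries; each point is 1 library, dKO left and control right. Ppp1r1b lies highest with a mean of 23.2 and Drd2 lowest with a mean of 0.772.

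Exons of 3 of the genes overlap those of other gene models in the counted annotation, and reads were counted without regard to strand. An opposite-strand gene model covers 15.7% of the Ppp1r1b exon bases and another covers 14.3% of the Penk exon bases. These opposite-strand models had at most 0.29 CPM and 0.22 CPM in any library. For Foxp1, 2 models on the same strand cover 3.16% of the exon bases and summed to 0.304 to 2.58 CPM. Reads within the overlaps cannot be assigned to one gene or the other.

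The first question was whether the levels differed between dKO and control in each region. In orbital tissue 0 of the 9 genes passed the test (edgeR quasi-likelihood test, Benjamini-Hochberg adjusted over all genes tested, threshold 0.05), beside 0.0374% of all 18730 genes tested. The count was also 0 of 9 in medial tissue, where 2.08% of all genes passed, and 0 of 9 in dorsal tissue, where 0.0214% passed. With the 3 regions of each row summed, 0 of 9 passed, beside 0.0249% of 20083 genes. In each of these comparisons 0 of 6 retinoic acid and retinoid X receptor genes passed, the mutated Rarb and Rxrg among them. At an unadjusted p under 0.05 there were 4 of 9 genes in orbital tissue, 1 each in medial and dorsal tissue, and 2 in the summed data, while all genes reached that level in 13.9%, 15%, 6.78% and 9.03% of tests. DESeq2 called 1 gene, Meis2, in orbital tissue and 0 in the other comparisons, and its share over all genes was not recorded. The fitted log2 fold change was negative for 6 of 9 genes in orbital tissue, for all 9 in medial tissue and for 8 in both dorsal tissue and the summed data. Its median over the 9 was -0.49, -0.34, -0.21 and -0.37 in that order, and the median over all genes was between -0.03 and 0.

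**Figure D2:**
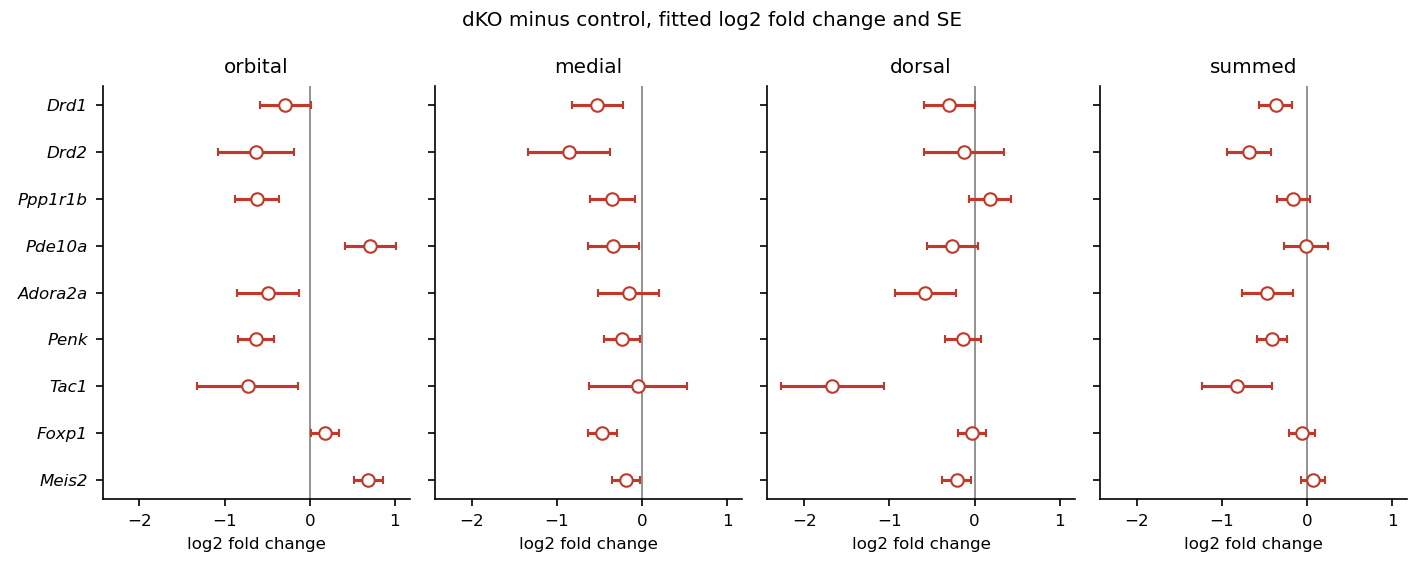
Fitted log2 fold change of dKO minus control with its SE for each gene, in orbital, medial and dorsal tissue and with the regions of a row summed. All points are open, since none passed an adjusted p of 0.05; Meis2 and Pde10a lie right of 0 in orbital tissue and most other points lie left of it.

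Among the transcription factors, Meis2 (GRCm38 chromosome 2, 115863064 to 116065839, minus strand, ENSMUSG00000027210) had 220, 227 and 201 CPM in orbital dKO libraries and 145, 134 and 125 CPM in orbital control libraries. Each of the 3 dKO libraries lay above each control library. The fit gave a log2 fold change of 0.69 (SE 0.17, adjusted p = 0.148), and DESeq2 gave 0.72 with an adjusted p of 0.0135. Over 13 alternatives the fold change ran from 0.55 to 0.78 and the adjusted p from 0.0135 to 0.677. In medial tissue Meis2 had 226, 151 and 188 CPM in dKO and 210, 174 and 219 CPM in control libraries, and in dorsal tissue 118, 84 and 138 CPM in dKO and 146, 118 and 115 CPM in control libraries. The groups overlapped in both of these regions.

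Foxp1 (chromosome 6, 98925338 to 99522721, minus strand, ENSMUSG00000030067) encodes a forkhead transcription factor. It had 67.7, 79.1 and 72 CPM in medial dKO libraries and 70.7, 102 and 119 CPM in medial control libraries. The dKO libraries with 72 and 79.1 CPM lay above the lowest control library, and the one with 67.7 CPM lay below it. With a log2 fold change of -0.47 (SE 0.17), the difference had an adjusted p of 0.166. In orbital tissue Foxp1 had 96.2, 132 and 85.4 CPM in dKO and 79.9, 87.3 and 110 CPM in control libraries, and in dorsal tissue 122, 158 and 155 CPM in dKO and 102, 160 and 172 CPM in control libraries. Genotypes overlapped in these regions too, and the fitted differences were 0.18 (SE 0.16) and -0.03 (SE 0.16).

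Among the neuropeptide genes, Penk (chromosome 4, 4133531 to 4138819, minus strand, ENSMUSG00000045573), the precursor of enkephalin, had 12.7, 10.1 and 14.6 CPM in orbital dKO libraries and 17, 20.6 and 20.8 CPM in orbital control libraries. All dKO libraries lay below all control libraries. The fitted log2 fold change was -0.63 (SE 0.21, adjusted p = 0.211), and the adjusted p ran from 0.0817 to 0.751 over 13 alternatives. In medial tissue Penk had 10.5, 10.6 and 8.26 CPM in dKO and 8.8, 13.3 and 11.1 CPM in control libraries, and in dorsal tissue 9.47, 10.9 and 10.9 CPM in dKO and 8.47, 10.3 and 14.6 CPM in control libraries. Meis2 above and Penk below were the only members whose CPM did not overlap between genotypes in orbital tissue, where 14% of all genes tested did not overlap. With CPM scaled by TMM factors, a choice made after the data were seen, Pde10a above and Ppp1r1b below were apart as well, 4 of 9 beside 13.9% of all genes. No member was apart in medial or dorsal tissue under either scaling, where 18.1% and 10.1% of all genes were in unscaled CPM.

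Tac1 (chromosome 6, 7554879 to 7565834, plus strand, ENSMUSG00000061762) is the precursor of substance P. Its fitted change was the largest of the set, -1.67 on the log2 scale in dorsal tissue (SE 0.6, adjusted p = 0.572). The dorsal dKO libraries held 1.37, 1.05 and 1.6 CPM and the dorsal controls 1.27, 10.8 and 3.21 CPM. A single control library stood far above the rest, and without it, control replicate 2, the fold change was -0.76 (adjusted p = 1). In orbital tissue Tac1 had 2.77, 1.96 and 2.1 CPM in dKO libraries and 1.44, 9.51 and 3.68 CPM in controls. Again control replicate 2 was the highest, and the fold change of -0.73 (SE 0.59) was -0.06 without that library. In medial tissue the dKO libraries had 1.28, 3.82 and 2.78 CPM and the controls 1.44, 2.07 and 4.04 CPM, with no library standing apart. The orbital and dorsal libraries in which Tac1 stood apart are those in which Rxrg was highest. The part of the shared row in these differences was not tested.

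Among the dopamine and adenosine receptors, Drd2 (chromosome 9, 49340627 to 49408177, plus strand, ENSMUSG00000032259) had 4.94, 1.73 and 2.98 CPM in orbital dKO libraries and 7.11, 4.09 and 3.49 CPM in orbital controls. Its highest dKO library lay between the control libraries. Medial tissue held 0.994, 0.608 and 0.406 CPM in dKO and 0.698, 1.12 and 1.46 CPM in control, and dorsal tissue 1.32, 1.15 and 0.377 CPM in dKO and 0.75, 1.24 and 0.913 CPM in control. Fitted log2 fold changes were -0.63 (SE 0.45), -0.86 (SE 0.48) and -0.13 (SE 0.47) in orbital, medial and dorsal tissue, and -0.68 (SE 0.26, adjusted p = 0.506) with the regions summed. The title prefix RAR or RXR splits the libraries into 1 pair and 2 pairs of dKO and control rows. In medial and dorsal tissue the RAR pair and the RXR pairs went opposite ways, with differences of TMM-scaled log2 CPM of 0.3 and -1.32 in medial and 0.64 and -0.66 in dorsal tissue. In orbital tissue they were -0.64 and -0.66.

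Adora2a (chromosome 10, 75316877 to 75334784, plus strand, ENSMUSG00000020178) encodes an adenosine receptor that opposes D2 dopamine receptor signalling. It had 9.55, 4.02 and 3.82 CPM in orbital dKO and 6.79, 8.6 and 7.99 CPM in orbital control libraries, so the highest library and the lowest 2 were all dKO. Medial tissue held 5.66, 3.68 and 3.04 CPM in dKO and 3.22, 4.59 and 4.87 CPM in control, and dorsal tissue 6.48, 2.63 and 5.34 CPM in dKO and 5.17, 9.08 and 6.01 CPM in control. In each region the RAR pair was higher in dKO, by 0.37, 0.62 and 0.18 in TMM-scaled log2 CPM, and the RXR pairs were lower in dKO, with differences of -1.01, -0.52 and -0.98. Fitted over all libraries, the log2 fold changes were -0.49, -0.16 and -0.58 in orbital, medial and dorsal tissue, each with an SE of 0.36.

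Drd1 (chromosome 13, 54051183 to 54055705, minus strand, ENSMUSG00000021478), the D1 dopamine receptor, had 32.6, 23.4 and 18.4 CPM in orbital dKO libraries and 35.6, 38.5 and 16.4 CPM in orbital controls. Both the lowest and the highest library were controls. It had 36.1, 21.9 and 39.7 CPM in medial dKO and 32.7, 61.2 and 37.5 CPM in medial control libraries, and 41.8, 32.8 and 29.8 CPM in dorsal dKO and 44.3, 35.9 and 42.4 CPM in dorsal control libraries. The fitted log2 fold changes were -0.29, -0.53 and -0.3, each with an SE of 0.3, and the adjusted p ran from 0.45 to 0.92 over the 3 regions.

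Of the intracellular signalling genes, Ppp1r1b (chromosome 11, 98348404 to 98357796, plus strand, ENSMUSG00000061718) had 58.8, 35.8 and 44.1 CPM in orbital dKO libraries and 56.8, 84.2 and 75 CPM in orbital controls. One dKO library lay just above the lowest control in CPM, and all dKO libraries lay below all controls once CPM was TMM-scaled. The fitted log2 fold change was -0.62 (SE 0.26, adjusted p = 0.297). In medial tissue it had 48.1, 39.3 and 60.4 CPM in dKO and 41.5, 91.1 and 47.1 CPM in control libraries, and in dorsal tissue 106, 87.2 and 97.3 CPM in dKO and 71.5, 94.9 and 82.6 CPM in control libraries. Pde10a (chromosome 17, 8525372 to 8986648, plus strand, ENSMUSG00000023868) encodes a phosphodiesterase that breaks down cAMP and cGMP. It had 83.7, 72.6 and 60.5 CPM in orbital dKO libraries and 43.9, 62.5 and 26.8 CPM in orbital controls, with a fitted log2 fold change of 0.71 (SE 0.3, adjusted p = 0.311). The lowest dKO library lay just below the highest control in CPM, and all dKO libraries lay above all controls once CPM was TMM-scaled. In medial tissue Pde10a had 63.1, 59.4 and 66.9 CPM in dKO and 66.9, 104 and 55.7 CPM in control libraries, and in dorsal tissue 83.3, 78.1 and 71.8 CPM in dKO and 84.6, 128 and 55.4 CPM in control libraries. The control libraries spread more widely than the dKO libraries in both regions and bracketed them.

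**Figure D3:**
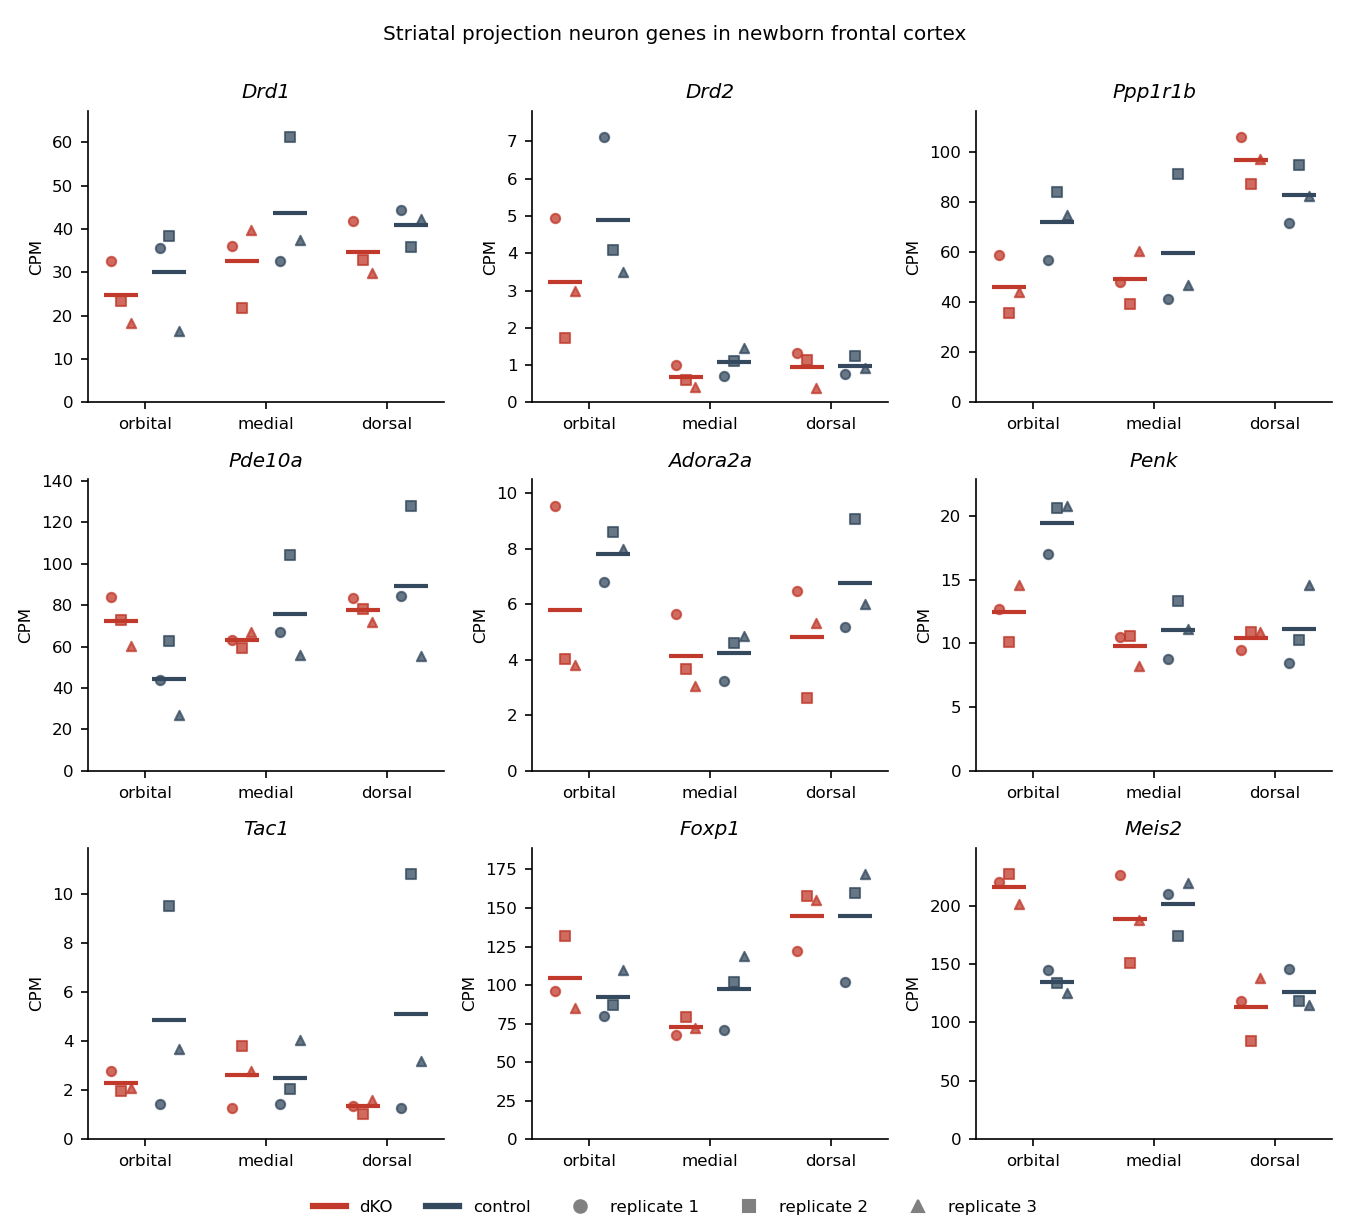
CPM of each gene in every library by region, dKO left of control within a region; symbols mark replicates 1 to 3 and bars mark the mean of 3 libraries. Drd2 is highest in orbital tissue in both genotypes, and Penk is highest there in the controls. Meis2 has 201 to 227 CPM in the orbital dKO libraries and 125 to 145 CPM in the orbital controls, and a single control replicate carries the high Tac1 values.

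Lists of related genes were set beside these 9. Of 22 other striatal projection neuron genes, 20 were tested, and 0 passed in orbital, medial or dorsal tissue or in the summed data, with medians of -0.18, -0.45, -0.3 and -0.3 on the log2 scale. The same count was 0 for the 8 direct pathway genes and the 6 indirect pathway genes tested, lists that hold Drd1 and Tac1, and Drd2, Adora2a and Penk, themselves. Of 25 dopamine and cAMP signalling genes, 2 fell in medial tissue, Prkar2b (log2 fold change -0.72, SE 0.14, adjusted p = 0.0187), a regulatory subunit of protein kinase A, and Pde4b (-0.74, SE 0.18, adjusted p = 0.039), a cAMP phosphodiesterase. Over all genes tested, 2.08% passed in medial tissue. The median of the dopamine and cAMP list was -0.44 in medial tissue, where 23 of its 25 genes were negative. It was -0.3 in dorsal tissue and -0.26 in the summed data, with 24 negative in each. In orbital tissue its median was 0.04, with 13 genes positive and 12 negative. None of the 21 transcription factors of the striatum and ganglionic eminences passed, and their summed level was uneven within dKO, at 947, 828 and 566 CPM in orbital and 1020, 574 and 685 CPM in medial dKO libraries. The orbital control libraries summed to 541, 702 and 516 CPM and the medial ones to 541, 726 and 617 CPM. Dlx5 and Sp9, transcription factors of ganglionic eminence cells, were highest in dKO replicate 1: Dlx5 with 28.5 CPM in orbital and 39.1 CPM in medial tissue and Sp9 with 46.5 and 68.8 CPM, against at most 12.6 and 15.2 CPM of Dlx5 and Sp9 in the orbital and medial controls. Progenitor and cell cycle markers rose in medial tissue for 7 of 12 genes, and their sum was 719, 457 and 469 CPM in dKO against 226, 254 and 208 CPM in control libraries. Their part in the values of the 9 genes was not tested.

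The second question was how the levels differed between regions, with regions compared within a row. In controls, orbital tissue had more Drd2 and Penk and less Pde10a than both other regions, less Meis2 than medial tissue and less Foxp1 than dorsal tissue. Orbital against medial tissue gave 4 of 9 genes past the threshold, beside 9.02% of all genes, and orbital against dorsal tissue gave 4 of 9, beside 15.8%. Both comparisons use the same orbital libraries. Medial against dorsal tissue gave 0 of 9, beside 0.491% of all genes. An unadjusted p under 0.05 was reached by 4 of 9, beside 9.36% of all genes. DESeq2 called 2, and its share over all genes was not recorded. The median log2 fold change of the 9 was 0.25, -0.1 and -0.25 in these 3 comparisons, and that of all genes was between -0.01 and 0.03. In unscaled CPM, 12.8% of all genes did not overlap between orbital and medial controls, where 3 members lay above and 1 below. For orbital against dorsal controls the share was 19.6%, with 2 members above and 0 below. For medial against dorsal controls it was 7.42%, with 1 member above and 1 below.

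Drd2 averaged 4.9 ± 1.94 CPM in orbital, 1.09 ± 0.381 CPM in medial and 0.969 ± 0.251 CPM in dorsal control tissue (SD, n = 3 each). Each orbital control library lay above each medial and each dorsal one. The fitted ratio of orbital to medial was 4.39-fold (log2 2.14, SE 0.45, adjusted p = 0.0149), and that of orbital to dorsal was 4.81-fold (log2 2.26, SE 0.45, adjusted p = 0.00671). The orbital to dorsal difference passed under each of 7 alternatives, with adjusted p up to 0.0414. The orbital to medial difference was 1.46 (adjusted p = 0.0768) without control replicate 1 and 2.02 (adjusted p = 0.0933) with no block for the row. Medial and dorsal tissue did not differ beyond their spread (0.13, SE 0.45).

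Penk averaged 19.5 ± 2.12 CPM in orbital, 11.1 ± 2.28 CPM in medial and 11.1 ± 3.17 CPM in dorsal control tissue. The orbital controls, too, lay above all medial and dorsal controls. Orbital exceeded medial tissue by 0.75 (SE 0.19, adjusted p = 0.0295) and dorsal tissue by 0.72 (SE 0.19, adjusted p = 0.0226) on the log2 scale. These calls depended on single rows: against medial tissue the adjusted p was 0.102, 0.0524 and 0.111 without control replicates 1, 2 and 3, and against dorsal tissue it was 0.111 and 0.088 without control replicates 1 and 2. The values themselves stayed between 0.62 and 0.91 over the alternatives of both comparisons.

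Adora2a, which with Drd2 and Penk marks the indirect pathway, averaged 7.8 ± 0.918 CPM in orbital, 4.23 ± 0.884 CPM in medial and 6.75 ± 2.06 CPM in dorsal control tissue. Its orbital controls lay above its medial controls, with a log2 difference of 0.83 (SE 0.25) that missed the threshold (adjusted p = 0.0525). DESeq2 gave 0.0234 and the fit without a filter on low counts 0.0475. Orbital and dorsal tissue differed by 0.13 (SE 0.25). The direct pathway genes Drd1 and Tac1 did not pass in either comparison, and Drd1 was -0.64 (SE 0.27, adjusted p = 0.169) against medial and -0.63 (SE 0.28, adjusted p = 0.139) against dorsal tissue. Without the filter on low counts Drd1 passed in both, with adjusted p of 0.0185 and 0.0189.

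Pde10a went the other way. It averaged 44.4 ± 17.9 CPM in orbital, 75.4 ± 25 CPM in medial and 89.5 ± 36.8 CPM in dorsal control tissue. The 3 control rows differed in level, and within each row orbital was the lowest region. The fitted log2 differences were -0.87 (SE 0.12, adjusted p = 0.00485) against medial and -1.12 (SE 0.12, adjusted p = 0.000573) against dorsal tissue. Both calls were kept when any control row was left out and were lost with no block for the row (adjusted p = 0.206 and 0.0604), where the levels of the rows enter the spread.

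Of the transcription factors, Meis2 averaged 135 ± 9.8 CPM in orbital, 201 ± 23.5 CPM in medial and 126 ± 17.1 CPM in dorsal control tissue. All medial controls lay above all orbital and dorsal controls. Orbital tissue was lower than medial tissue by a log2 difference of -0.65 (SE 0.15, adjusted p = 0.019), and the adjusted p was 0.0671 and 0.134 without control replicates 2 and 3. Medial minus dorsal was 0.63 (SE 0.15, adjusted p = 0.0838), and orbital and dorsal tissue differed by -0.01 (SE 0.15). Foxp1 averaged 92.4 ± 15.6 CPM in orbital, 97.2 ± 24.5 CPM in medial and 145 ± 37.5 CPM in dorsal control tissue. It was lower in orbital than in dorsal tissue by a log2 difference of -0.73 (SE 0.13, adjusted p = 0.00432), and this passed under each of 7 alternatives with adjusted p up to 0.0445. Medial minus dorsal was -0.61 (SE 0.13, adjusted p = 0.063).

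In dKO tissue, orbital against medial gave 0 of 9 genes, beside 0.016% of all genes. An unadjusted p under 0.05 was reached by 2 of 9, beside 7.29% of all genes. DESeq2 called 2, and its share over all genes was not recorded. Orbital against dorsal gave 2 of 9, beside 0.486%, and medial against dorsal gave 3 of 9, beside 2.09%. In unscaled CPM, 9.71% of all genes did not overlap between orbital and medial dKO libraries, where 2 members lay above and 0 below. For orbital against dorsal dKO tissue the share was 8.77%, with 3 members above and 1 below. For medial against dorsal dKO tissue it was 19.6%, with 1 member above and 3 below. Drd2 was again higher in orbital tissue, with dKO means of 3.22 ± 1.62 CPM in orbital, 0.669 ± 0.299 CPM in medial and 0.95 ± 0.504 CPM in dorsal tissue, and the orbital libraries lay above all others. The log2 differences of 2.3 (SE 0.46, adjusted p = 0.138) and 1.74 (SE 0.46, adjusted p = 0.15) missed the threshold, and DESeq2 gave 0.000177 and 0.0217. Foxp1 was lower in medial than in dorsal dKO tissue, at 72.9 ± 5.78 and 145 ± 19.8 CPM, with a log2 difference of -1.05 (SE 0.13, adjusted p = 0.00158) that passed under each of 7 alternatives (adjusted p up to 0.0436). Its orbital dKO mean of 105 ± 24.4 CPM lay between them. Drd1, Pde10a, Adora2a, Penk and Tac1 passed in none of the dKO comparisons between regions. Penk orbital minus medial was 0.35 (SE 0.19, adjusted p = 0.724) in dKO, and orbital minus dorsal was 0.21 (SE 0.19, adjusted p = 0.974).

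Ppp1r1b had 46.3 ± 11.7 CPM in orbital, 49.3 ± 10.6 CPM in medial and 96.8 ± 9.37 CPM in dorsal dKO tissue, and all dorsal libraries lay above all others. It was lower in orbital than in dorsal tissue by a log2 difference of -1.14 (SE 0.17, adjusted p = 0.0111) and lower in medial than in dorsal tissue by -1.05 (SE 0.17, adjusted p = 0.00809). Without dKO replicates 1, 2 and 3 the adjusted p of the first difference was 0.153, 0.181 and 0.0871, and without dKO replicates 1 and 2 that of the second was 0.151 and 0.114. In controls the same differences were -0.32 (SE 0.17, adjusted p = 0.228) and -0.57 (SE 0.17, adjusted p = 0.248). Meis2 averaged 216 ± 13.4 CPM in orbital, 188 ± 37.8 CPM in medial and 113 ± 27.2 CPM in dorsal dKO tissue. Orbital minus dorsal was 0.91 (SE 0.15, adjusted p = 0.0137) and medial minus dorsal 0.67 (SE 0.15, adjusted p = 0.0335). Both were lost without dKO replicate 1 (0.96 and 0.56, adjusted p = 0.247 and 0.433) or without dKO replicate 2 (0.66 and 0.61, adjusted p = 0.199 and 0.125).

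**Figure D4:**
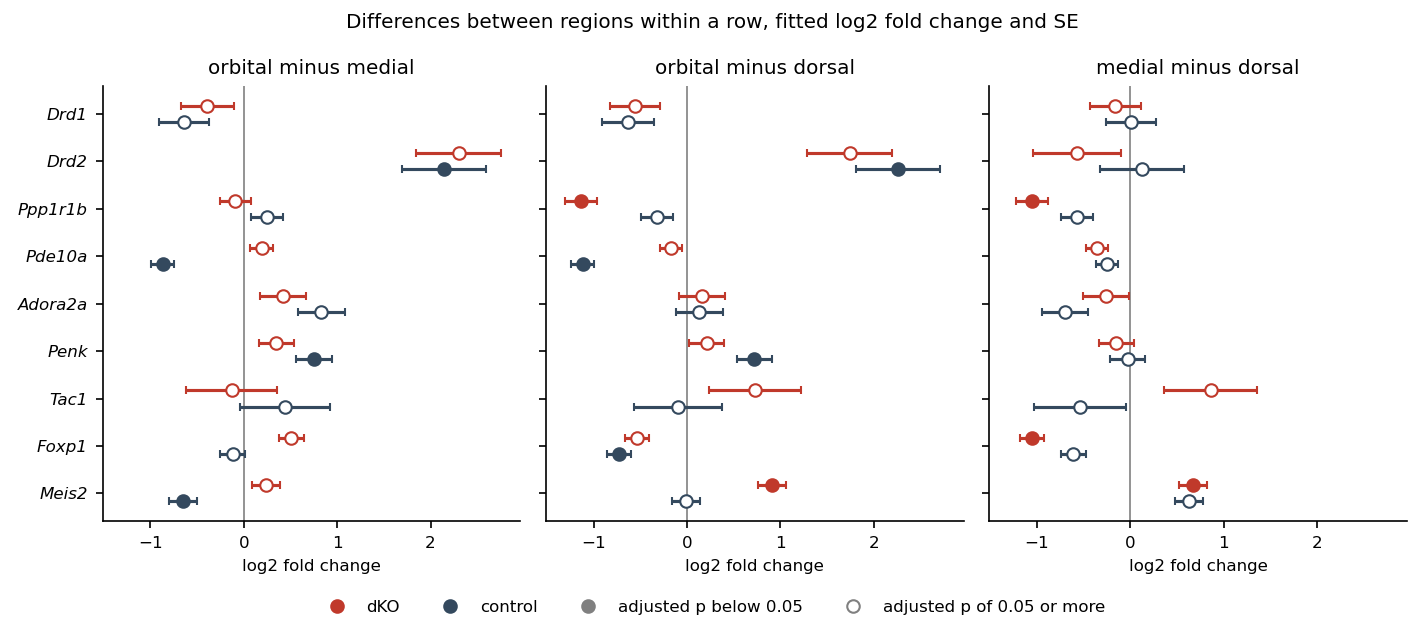
Fitted log2 fold change between regions with its SE, dKO above control for each gene; filled points have an adjusted p below 0.05. Drd2 lies near 2 in both orbital comparisons and both genotypes, and Pde10a and Meis2 differ between genotypes in the orbital comparisons.

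Whether the genotype difference itself differed between regions was tested in the same fit. Of the 9 genes, 1 passed, beside 0.123% of all genes: Pde10a, with an adjusted p of 0.0451. Orbital minus medial was 0.19 in dKO and -0.87 in control, a difference of 1.06 (SE 0.17), and orbital minus dorsal was -0.17 in dKO and -1.12 in control, a difference of 0.95 (SE 0.17). Medial minus dorsal was -0.36 in dKO and -0.25 in control, a difference of -0.11 (SE 0.17). In dKO the 3 regional means were 72.3 ± 11.6, 63.1 ± 3.71 and 77.7 ± 5.79 CPM in orbital, medial and dorsal tissue. The call was lost without dKO replicates 1, 2 and 3 (adjusted p = 0.451, 0.405 and 0.0606), without control replicates 2 and 3 (0.147 and 0.112), with RLE size factors (0.0523) and with no block for the row (0.727). Meis2 had the next lowest adjusted p, 0.0844, with differences of 0.88 (SE 0.21) for orbital minus medial and 0.92 (SE 0.21) for orbital minus dorsal, and DESeq2 gave 0.00167. Foxp1 (adjusted p = 0.191), Ppp1r1b (0.21) and the other 5 genes (0.512 to 0.939) did not pass, and a p that misses the threshold does not show that the regional pattern was the same in both genotypes.

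**Figure D5:**
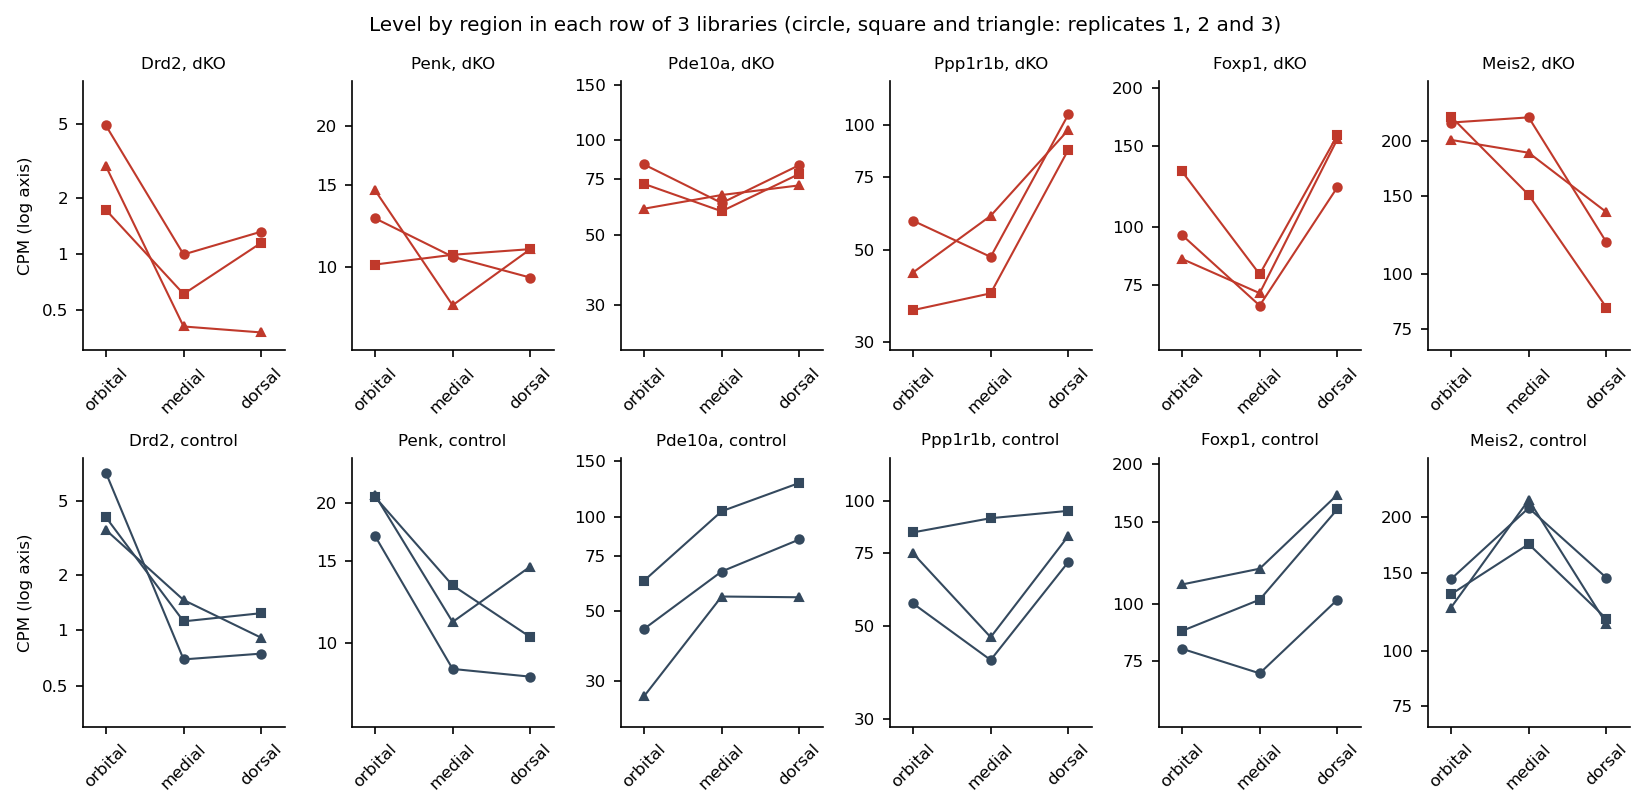
CPM of 6 genes by region (log axis), with a line for each row of 3 libraries; dKO rows above, control rows below. The 3 control lines of Pde10a are lowest at orbital tissue, the dKO lines are flatter, and the Drd2 lines are highest at orbital tissue in all 6 rows.

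Other gene lists show what else differed between orbital tissue and the other regions in controls. Over all genes tested, 9.02% passed for orbital against medial tissue and 15.8% for orbital against dorsal tissue. Among 20 tested other striatal projection neuron genes, 0 were higher and 1 was lower in orbital than in medial tissue, and 1 was higher and 4 were lower in orbital than in dorsal tissue. The lower ones were Cnr1, a cannabinoid receptor (-0.54, SE 0.11, adjusted p = 0.0143 against medial and -0.74, SE 0.11, adjusted p = 0.00223 against dorsal tissue), and, against dorsal tissue, Gnal, Arpp21 and Syndig1l. The higher one was Gpr6, an orphan receptor of indirect pathway neurons (3.5, SE 0.77, adjusted p = 0.00982), which had 2.94, 3.25 and 7.51 CPM in orbital and 0.0708, 1 and 0.252 CPM in dorsal controls. Of the tested indirect pathway genes beside Drd2, Penk, Adora2a and Gpr6, namely Sp9 and Six3, none passed in these comparisons. Of the direct pathway genes beside Drd1 and Tac1, Ebf1 was higher in both. Of the 6 retinoic acid and retinoid X receptor genes, 2 were higher in orbital tissue in each comparison, Rarb among them. The log2 fold change was positive for all 6 against medial tissue (median 0.58) and for 4 against dorsal tissue (median 0.24). Rarb was higher in orbital than in medial tissue (0.93, SE 0.25, adjusted p = 0.0333) and than in dorsal tissue (0.8, SE 0.25, adjusted p = 0.0415).

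Markers of other cells moved with the same contrast, where 9.02% of all genes passed against medial and 15.8% against dorsal tissue. Meningeal fibroblast markers were higher in orbital tissue for 5 of 7 genes against medial and 4 of 7 against dorsal tissue, and summed to 1370 to 1780 CPM in orbital, 248 to 1110 CPM in medial and 647 to 850 CPM in dorsal controls. Microglia markers were higher for 3 of 6 and 4 of 6 genes, with sums of 170 to 184, 58.4 to 130 and 87.3 to 94.8 CPM. Cortical projection neuron markers were lower for 6 of 13 genes in each comparison, with sums of 2330 to 3380, 3510 to 4420 and 3610 to 4920 CPM. Olfactory bulb markers were higher for 1 of 6 and 3 of 6 genes, with sums of 861 to 1840, 176 to 1680 and 173 to 518 CPM. In dKO the meningeal sums were 669 to 1170 CPM in orbital, 633 to 982 CPM in medial and 830 to 1120 CPM in dorsal tissue. The part of these cells in the regional levels of Drd2, Penk, Pde10a, Meis2 and Foxp1 was not tested.

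For each gene, the 3 genes with the most similar profile over the 18 libraries were taken from 12995 genes with a mean of at least 1 CPM, by Pearson's r of TMM-scaled log2 CPM. These values describe libraries that share rows, regions and genotypes and carry no test. The closest were Tmem106a to Drd2 (r = 0.84), Foxd2 to Penk (0.87), Arhgef1 to Adora2a (0.85), Dop1b to Drd1 (0.86), Fhl2 to Ppp1r1b (0.88), Srgap2 to Pde10a (0.95), Nrgn to Foxp1 (0.9), Hdac9 to Meis2 (0.87) and Sntb2 to Tac1 (0.79). Rxrg was also among the 3 closest to Tac1 (r = 0.72), and without the row of control replicate 2 this r was 0.31 over 15 libraries. Between members, Drd2 and Penk had r = 0.69 over the 18 libraries and 0.09 after each library's group mean was subtracted, and Ppp1r1b and Meis2 had -0.74 and -0.25. Drd1 and Pde10a had 0.58 in both forms.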

How the data were processed

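Frozen brains of newborn mice were microdissected, and cDNA made with the SMART-seq v4 kit and Nextera XT was sequenced as 100 bp read pairs, per the labels' protocols. The deposited table holds unnormalized counts, per gene, of sequenced fragments. They were made by the authors with STAR 2.6 and featureCounts 1.6.2, per the submitters' processing notes, in pairs, ignoring strand, with Ensembl 94 models of GRCm38, per the file headers. The deposited exon lengths gave CPM per kb. Of 24 per-sample columns, 18 matched samples, and 6 matched none and were not used; 2 orbital control columns write the letter O where the title has a digit. Symbols were matched through GENCODE M21 for 54409 of 54532 genes; 1 list gene had no match and is not analysed here.

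Counts were tested in R 4.3.3 with edgeR 4.0.16 (TMM, filterByExpr with minimum count 10 and total 15, quasi-likelihood F tests, Benjamini-Hochberg over all genes of a comparison, threshold 0.05). dKO minus control used 6 group means and the title prefix (18730 genes), and treated the libraries of a row as independent; counts summed over a row were tested with the prefix (20083 genes). Region comparisons and the genotype by region test used the row (prefix and index) as a block, since libraries of a row deviated together from their group means (r = 0.27 to 0.49 in control rows and 0.2 to 0.65 in dKO rows, 9 pairs each). Whether a row is 1 brain is not stated, so p-values cover only the spread among these libraries, which may be technical. SE is that of the fitted log2 fold change; CPM was scaled to all counted fragments, and log2 CPM used TMM factors and a prior count of 2. Alternatives were DESeq2 1.42.0, RLE size factors, no filter, other terms for batch, an Xist covariate (above 1 CPM), a region's own spread and leaving out libraries or rows. The fits were tested on simulated data.

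The members and the 18 gene lists were chosen with earlier results of these data known. All 9 members were tested in every comparison, but not every member's value is given in each. Of each list, at most 4 genes past the threshold were named, with Rarb, Rxrg and genes that check tissue or sex. Dlx5, Sp9 and Six3 were named after their values were seen. Plots used matplotlib 3.10.9.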

Additional observations from a re-analysis of the deposited data

Results flagged for a closer look

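Pde10a was singled out because its difference between dKO and control differed between regions (genotype by region, adjusted p = 0.0451). Its fitted dKO minus control log2 fold change was 0.71 (SE 0.3) in orbital, -0.34 (SE 0.3) in medial and -0.26 (SE 0.3) in dorsal tissue. Over 10 alternatives the adjusted p ran from 1.1e-06 to 0.727. Single libraries were left out in turn for dKO minus control within a region, and rows for the other comparisons. No other search for outlying samples was made.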

How the results depend on the processing

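The 9 genes gave 90 signed fold changes, of which 66 kept their direction under every alternative. The 927 recomputed values also include adjusted p-values of the genotype by region test, which have no sign. Of the 927, 832 kept their side of the threshold and, where signed, their direction. Of the rest, 34 lost the call, 21 gained it and 40 changed sign, all of the last from fold changes that had not passed. Over the leave-out fits, the dKO minus control log2 fold changes that changed sign ran from -0.268 to 0.218 for Tac1 and -0.542 to 0.064 for Ppp1r1b in medial tissue; from -0.474 to 0.205 for Drd2, -0.515 to 0.101 for Pde10a, -0.24 to 0.063 for Penk and -0.123 to 0.044 for Foxp1 in dorsal tissue; and from -0.251 to 0.37 for Pde10a, -0.119 to 0.033 for Foxp1, -0.022 to 0.146 for Meis2 and -0.355 to 0.008 for Ppp1r1b in the summed data. Between regions in dKO they ran from -0.019 to 0.522 for Adora2a orbital minus dorsal, -0.676 to 0.367 for Tac1 and -0.273 to 0.091 for Ppp1r1b orbital minus medial, and -0.456 to 0.045 for Drd1 and -0.594 to 0.073 for Adora2a medial minus dorsal. In control they ran from -0.094 to 0.84 for Tac1 and -0.253 to 0.009 for Foxp1 orbital minus medial, -0.037 to 0.039 for Meis2 and -0.178 to 0.098 for Tac1 orbital minus dorsal, and -0.352 to 0.217 for Drd1, -1.018 to 0.191 for Tac1, -0.154 to 0.275 for Drd2 and -0.239 to 0.192 for Penk medial minus dorsal. With Xist as a covariate, Ppp1r1b was -0.165 and Foxp1 0.07 in dorsal tissue, and Pde10a 0.007, Foxp1 0.066 and Meis2 -0.05 in the summed data. Summed Pde10a was 0.006 with RLE size factors, dorsal Foxp1 0.001 without the filter on low counts, and medial Tac1 0.009 without the prefix term. The cause of these changes was not tested.

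Counts of members past the threshold moved as follows, with no share of all genes recorded for the alternatives. For orbital minus medial in control the count of 4 was 5 with DESeq2 and 6 without the filter, and for orbital minus dorsal in control it was 5 without the filter and 3 to 4 when a row was left out. DESeq2 called 1 in orbital dKO against control, 2 for medial minus dorsal in control, 2, 4 and 3 for orbital minus medial in dKO, orbital minus dorsal in dKO and genotype by region. Without the filter the last 4 of these counts were 2, 2, 4 and 3, and RLE size factors gave 0 for genotype by region. Leaving out a row gave 2 for orbital minus medial in control each time, 0 to 1 for orbital minus dorsal in dKO, 1 to 3 for medial minus dorsal in dKO and 0 to 1 for genotype by region. With no replicate block, the row being replaced by the prefix, the counts were 0 and 2 for orbital minus medial and orbital minus dorsal in control, 0 and 1 for orbital minus dorsal and medial minus dorsal in dKO, and 0 for genotype by region, and Tac1 orbital minus medial in dKO was 0.049. Between dKO and control, same-numbered libraries deviated together only weakly (r = -0.07 to 0.32 over 9 pairs), 13 of 18 libraries correlated best with their own number, and a replicate block left each dKO count at 0, with summed Pde10a at 0.061. With TMM-scaled CPM, chosen after seeing the data, 4 members in place of 2 did not overlap between orbital dKO and control libraries. Drd2 and Tac1 rest on as few as 12 and 41 fragments in a library, and how far this limits their fits was not tested.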
